A study of Homo sapiens with 8 samples.

Results

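The 10 genes described here encode the enzymes that build serine (PHGDH, PSAT1 and PSPH), pass its carbon to folate inside mitochondria (SHMT2, MTHFD2 and ALDH1L2), make asparagine (ASNS), make proline (ALDH18A1 and PYCR1) and make phosphoenolpyruvate in mitochondria (PCK2). They were chosen by symbol, with earlier results of these data known, and all 10 were found among the 58787 gene rows of the deposited count table. All 10 also passed the filter on low counts, which left 16518 genes when all libraries were used and 16696 when pair 1 was left out. The samples were IMR32, an established human neuroblastoma line with amplified MYCN, labelled as wild type and as neuroblasts. One group received CR31B at its IC50 and the other 0.1% DMSO, both after 48 h of attachment in flasks, and RNA was taken at the 6 h time point. CR31B is a rocaglate, a compound that clamps the RNA helicase eIF4A onto messenger RNA and thereby hinders translation initiation. Each group had 4 libraries, described as biological replicates and numbered 1 to 4, of polyadenylated RNA from this 1 line. The series title places the question in the programme of translation that eIF4A controls.

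PHGDH takes 3-phosphoglycerate out of glycolysis, PSAT1 adds the amino group using glutamate as donor, and PSPH removes the phosphate to give serine. SHMT2 splits serine into glycine and a carbon unit on tetrahydrofolate, MTHFD2 oxidises that unit and ALDH1L2 releases it as carbon dioxide while making NADPH. Many of these genes are textbook targets of ATF4, a transcription factor that is made when eIF2alpha is phosphorylated or amino acids are short, and that binds the C/EBP-ATF response element together with C/EBP partners. Cells that divide fast, neuroblastoma cells with amplified MYCN among them, are known to draw on serine, asparagine, proline and folate carbon for nucleotides and protein.

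Promoter letters are shown for 3 genes whose transcript data differed, to place these levels beside the sequence that ATF4 and E-box factors are known to read. RefSeq promoters (GRCh38.p14) were found for 6 of the 10 genes, ASNS with 2 starts; PSPH, SHMT2, ALDH1L2 and PYCR1 had no entry. The 250 bases before each start were searched on both strands for TGATGNAAN (the response element of C/EBP and ATF proteins), CACGTG (the E-box) and TGACNNNGC (the core of the antioxidant response element), and no match of one overlapped a match of another. The first stretch, 30 bases of ASNS on the minus strand at chr7:97872457-97872486, holds the only response element found among these promoters, in capitals, starting 68 bases before one of the RefSeq starts.
ASNS: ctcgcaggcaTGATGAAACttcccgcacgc
The next is the window before ALDH18A1, on the minus strand at chr10:95656712-95656961, with the only E-box found in capitals, 136 bases before the start.
ALDH18A1: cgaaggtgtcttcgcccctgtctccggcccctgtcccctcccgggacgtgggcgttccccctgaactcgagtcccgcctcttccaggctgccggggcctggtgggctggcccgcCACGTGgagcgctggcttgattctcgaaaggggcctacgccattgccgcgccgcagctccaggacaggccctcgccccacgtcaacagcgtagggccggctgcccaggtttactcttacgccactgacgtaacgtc
The last is the window before PSAT1, on the plus strand at chr9:78296875-78297124, in which none of the 3 motifs was found.
PSAT1: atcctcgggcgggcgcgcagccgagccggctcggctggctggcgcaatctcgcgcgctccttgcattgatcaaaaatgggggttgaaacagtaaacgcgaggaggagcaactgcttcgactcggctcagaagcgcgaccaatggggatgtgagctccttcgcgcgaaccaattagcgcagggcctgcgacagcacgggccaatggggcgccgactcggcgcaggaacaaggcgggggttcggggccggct
PHGDH, MTHFD2 and PCK2 also had no match. Gene spans given below are from GENCODE 29, and their starts differ from the RefSeq starts used here. By those spans the ASNS stretch and the PHGDH and PCK2 windows lie inside the gene. The MTHFD2 window lies partly inside. Over 35116 promoter windows of the same length, 3.13% held TGATGNAAN, 6.34% held CACGTG and 10.9% held TGACNNNGC. A match is a description of these letters and not evidence of binding.

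Libraries held 43687828 to 64715535 counts. Per the labels, both libraries of pair 1 were read paired-end and the other 6 single-end. On the first principal component, which held 51.8% of the variance, the library labelled CR31B replicate 1 lay among the DMSO libraries of pairs 2 to 4 and the library labelled DMSO replicate 1 on the side of their CR31B libraries, beyond them. Pair 1 is therefore given apart, the calls are given for pairs 2 to 4 and for all 8 libraries as labelled, and "rose" and "fell" below refer to pairs 2 to 4. All 10 neuroblast markers passed the filter. In pairs 2 to 4, 5 were higher and 4 lower with CR31B, against 23.8% higher and 17.6% lower among all tested genes. The log2 fold changes of the called ones ran from -0.98 to 1.78 (edgeR), each with the opposite sign in pair 1. TH averaged only 2.43 CPM (counts scaled to library size after TMM normalisation). SOX10, PRRX1, CD3E and KRT5 had no reads. Summed over a list, 8 mesenchymal or Schwann-like markers had 187 to 246 CPM in the CR31B group and 191.5 to 227 CPM in the DMSO group. The 3 immune markers had 0.311 to 0.975 CPM with CR31B and 0.455 to 1.07 CPM with DMSO, the 3 endothelial markers 1.38 to 2.09 and 0.791 to 2.61 CPM, and the 4 epithelial markers 0.0448 to 0.106 and 0 to 0.273 CPM. PTPRC and CDH5 were lower with CR31B in pairs 2 to 4 (adjusted p = 0.0447 and 0.00282, edgeR). CD14 had 4 to 6 reads per library with CR31B there and 12 to 16 with DMSO, and passed the filter only through the DMSO libraries. Its difference is therefore not given as a test. The part of these markers in the results was not tested.

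In pairs 2 to 4, 9 of the 10 enzyme genes rose with CR31B and none fell, and ALDH18A1 was not called (edgeR quasi-likelihood test, adjusted p under 0.05 over all genes). Among all tested genes 41.3% were called, 23.8% higher and 17.6% lower. Because the 10 genes were chosen with earlier results of these data known, these shares are background and no test of the list. For the same 9 genes the 3 CR31B libraries lay above the 3 DMSO libraries, as they did for 27.7% of all tested genes; 24.4% lay below, and 52.1% were apart in one direction or the other. The median log2 fold change was 0.85 for the 10 genes and -0.01 for all tested genes. PCK2, ASNS, PSPH and ALDH1L2 rose more than 2-fold, while 1.99% of all tested genes were called and at least 2-fold higher and 0.683% at least 2-fold lower. The ASNS row is uncertain, as described below. A CPM value is a share of all messenger RNA, so more RNA per cell and a change in the mix of cells cannot be told apart in these bulk samples.

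**Figure D1:**
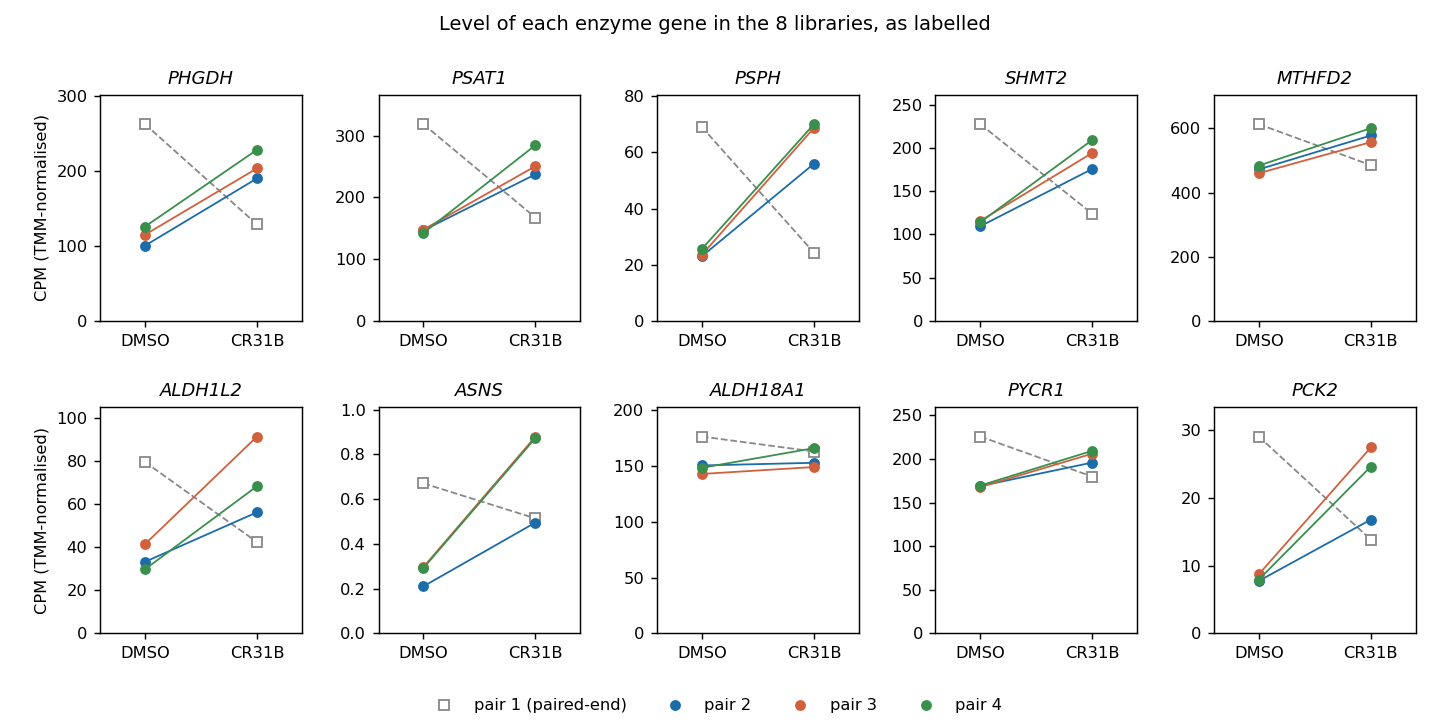
Level of each of the 10 genes in the 8 libraries, in CPM on a linear axis from 0, with DMSO at the left and CR31B at the right of each panel and lines joining same-numbered libraries. In pairs 2 to 4 (filled circles) the 3 CR31B libraries lie above the 3 DMSO libraries for every gene except ALDH18A1, and pair 1 (open squares, dashed) runs the opposite way in all 10 panels.

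With all 8 libraries grouped as labelled, 0 of the 10 genes passed (edgeR, layout as a term), as did 0% of all 16518 tested genes; 1 of the 10, ASNS, and 205 of all genes had an unadjusted p under 0.05. For none of the 10 were the labelled groups of 4 apart, as against 0.660% of all tested genes. DESeq2 and limma voom also called 0 of the 10. The log2 fold changes of this fit ran from 0.03 for ALDH18A1 to 0.99 for ASNS, with a median of 0.41. The adjusted p was 0.707 for 9 genes and 0.855 for ALDH18A1 (edgeR). In pair 1 all 10 genes were lower in the library labelled CR31B, by log2 differences from -1.5 to -0.11. Among all genes called in pairs 2 to 4, 98.9% had the opposite sign in pair 1. The difference of pair 1 departed from that of pairs 2 to 4 in 9 of the 10 genes, again all except ALDH18A1 (interaction of treatment with layout, edgeR, adjusted p under 0.05; 8 with DESeq2, where ASNS did not pass at adjusted p = 0.0764), against 42.5% of all tested genes. All 9 were lower in pair 1, which held for 24.1% of all tested genes, while 18.4% were higher. With 1 library per group in pair 1, its own spread is not known. An exchange of its 2 labels, paired-end reading and the replicate itself cannot be told apart here, so the direction of every value from pair 1 or from all 8 libraries rests on those labels.

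**Figure D2:**
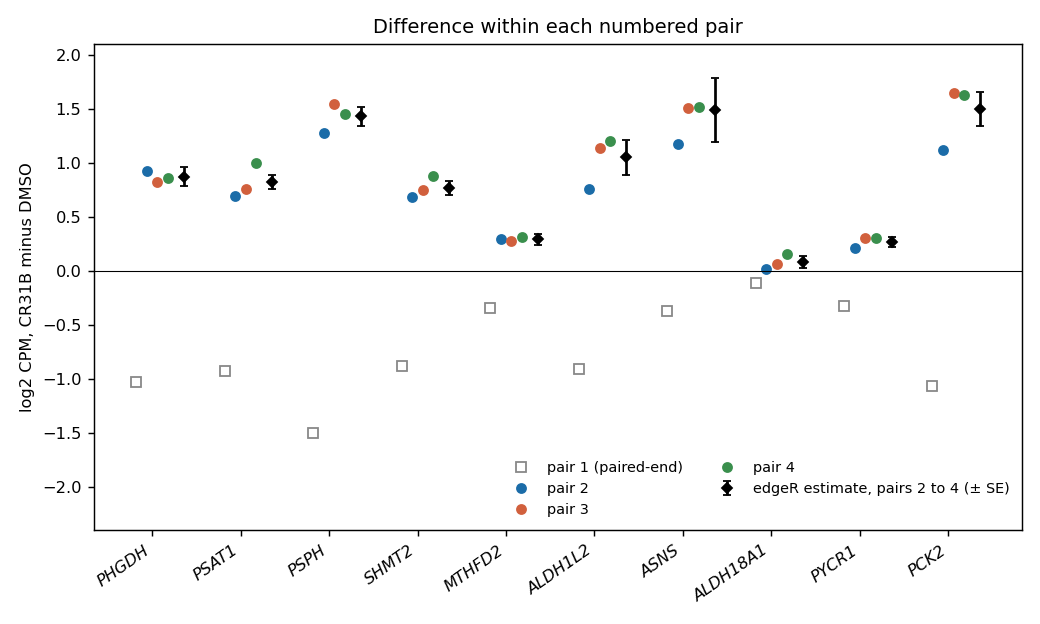
Difference in log2 CPM between CR31B and DMSO within each numbered pair, for each gene, with the edgeR estimate over pairs 2 to 4 and its SE as diamonds. Filled circles for pairs 2 to 4 lie above 0 for all 10 genes, closest to it for ALDH18A1, and the open squares of pair 1 lie below 0 for all 10.

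The serine branch rose at each of its steps. PHGDH (ENSG00000092621, chromosome 1, 119648411 to 119744226, plus strand, GRCh38) had 190.2, 204 and 228 CPM with CR31B and 100.4, 115 and 126 CPM with DMSO in pairs 2, 3 and 4. Its 3 CR31B libraries lay above the 3 DMSO libraries, and the log2 fold change was 0.87 ± 0.088 (SE; adjusted p = 3.36e-05, edgeR). In pair 1 PHGDH had 129 CPM in the library labelled CR31B and 262.5 CPM in that labelled DMSO.

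PSAT1 (ENSG00000135069, chromosome 9, 78297143 to 78330093, plus strand), whose promoter window is printed above, had 238, 251 and 285 CPM with CR31B and 147, 148 and 142.5 CPM with DMSO. The DMSO libraries spread by little, with 146 ± 2.87 CPM (SD, n = 3), and did not overlap the CR31B libraries. The log2 fold change was 0.82 ± 0.067 (adjusted p = 7.89e-06, edgeR). Pair 1 ran from 319 CPM (DMSO) to 167 CPM (CR31B).

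PSPH (ENSG00000146733, chromosome 7, 56011051 to 56051604, minus strand), the phosphatase of the last step, had 56, 68.8 and 70.1 CPM with CR31B and 23, 23.6 and 25.6 CPM with DMSO. Its log2 fold change of 1.43 ± 0.088, or 2.7-fold, had the smallest adjusted p of the 10 genes, 1.76e-06 (edgeR). The interval of 2 SE around it, 1.26 to 1.61, did not reach those of PHGDH (0.69 to 1.05) and PSAT1 (0.69 to 0.96). Pair 1 held 24.3 CPM in the library labelled CR31B and 69.1 CPM in that labelled DMSO, each inside the range of the opposite group in pairs 2 to 4.

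Of the mitochondrial folate enzymes, SHMT2 and ALDH1L2 had larger rises than MTHFD2, with intervals of 2 SE that did not meet its own (0.64 to 0.90, 0.72 to 1.38 and 0.19 to 0.40 on the log2 scale). SHMT2 (ENSG00000182199, chromosome 12, 57229327 to 57234935, plus strand) had 176, 194 and 209 CPM with CR31B and 109, 116 and 114 CPM with DMSO, with no overlap. Its log2 fold change was 0.77 ± 0.065 (adjusted p = 9.9e-06, edgeR), and pair 1 went from 227 CPM (DMSO) to 124 CPM (CR31B).

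MTHFD2 (ENSG00000065911, chromosome 2, 74198562 to 74217565, plus strand) had the highest CPM of the 10 genes, with 578, 557 and 600.6 CPM with CR31B and 472, 460.2 and 484 CPM with DMSO. The groups did not overlap, but the rise was 1.23-fold, a log2 fold change of 0.29 ± 0.051 (adjusted p = 0.00111, edgeR), which was 0.159 with GC and length offsets (adjusted p = 0.0388, edgeR). Of its exonic bases 33.2% overlap genes annotated on the opposite strand, SLC4A5 among them. The strand setting of the count is not described, though the name of the deposited count table holds the word reverse. Its log2 difference in pair 1 was -0.34, close in size to the 0.28 to 0.31 of the other pairs.

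ALDH1L2 (ENSG00000136010, chromosome 12, 105019784 to 105084577, minus strand) had 56.4, 91.6 and 68.5 CPM with CR31B and 33.3, 41.5 and 29.8 CPM with DMSO. It varied more between same-group libraries than the other folate enzymes, with pair 3 highest in both groups. The log2 fold change was 1.05 ± 0.16 (adjusted p = 5.73e-04, edgeR), and the log2 difference in pair 1 was -0.91.

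ASNS (ENSG00000070669, chromosome 7, 97852118 to 97872542, minus strand), which makes asparagine from aspartate with glutamine as nitrogen donor, was counted at 13 to 51 reads per library. That gave 0.496, 0.88 and 0.874 CPM with CR31B and 0.21, 0.296 and 0.292 CPM with DMSO in pairs 2, 3 and 4. The groups did not overlap and the log2 fold change was 1.49 ± 0.3 (adjusted p = 0.0026, edgeR), the widest SE of the 10 genes. In pair 1 ASNS had 0.514 CPM in the library labelled CR31B and 0.671 CPM in that labelled DMSO, a log2 difference of -0.37 that is smaller in size than those of pairs 2 to 4.

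The ASNS row is uncertain because 1985 of its 4455 annotated exonic bases, 44.6%, also belong to AC079781.5 (ENSG00000284707, chromosome 7, 97851688 to 97972985) on the same strand, which RefSeq lists at this place as the read-through transcript CZ1P-ASNS. The 4455 bases join all annotated ASNS transcripts, the longest of which has 2356 bases. Exon blocks 6 to 9 and 12 to 14 of ASNS lie wholly inside exons of AC079781.5. How much of the longest transcript is shared was not measured. The AC079781.5 row held 11 to 37 reads per library. In pairs 2, 3 and 4 it had 0.419, 0.449 and 0.246 CPM with CR31B and 0.55, 0.503 and 0.72 CPM with DMSO, the opposite order to ASNS. Its log2 fold change of -0.63 ± 0.28 did not pass (adjusted p = 0.097, edgeR). How the count treated reads in shared exons is not given in the sources used here, so the level of ASNS is not comparable with that of the other enzymes. The ASNS fold change rests on the same reads and is uncertain for the same reason.

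**Figure D3:**
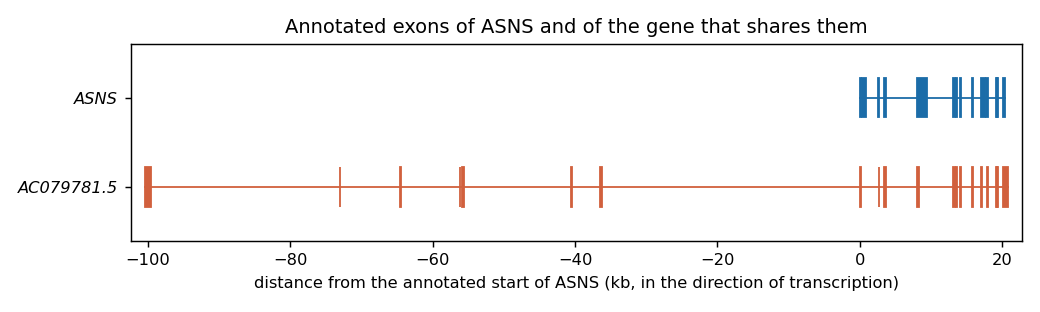
Annotated exon blocks of ASNS and of AC079781.5 in GENCODE release 29, by distance in kb from the annotated start of ASNS. AC079781.5 starts at -100.443 kb and then shares exons over the length of ASNS, which leaves 44.6% of ASNS exonic bases, counted over all annotated transcripts, common to both.

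Of the proline enzymes PYCR1 rose and ALDH18A1 did not pass. ALDH18A1 (ENSG00000059573, chromosome 10, 95605929 to 95656706, minus strand), which turns glutamate into the precursor of proline and ornithine, had 153, 149 and 166 CPM with CR31B and 150.3, 143 and 148 CPM with DMSO. The groups overlapped, and the log2 fold change of 0.08 ± 0.054 did not pass (adjusted p = 0.245, edgeR), with an interval of 2 SE from -0.02 to 0.19. It was slightly negative, -0.012, with upper quartile scaling. In pair 1 it had 163 CPM in the library labelled CR31B and 176 CPM in that labelled DMSO.

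PYCR1 (ENSG00000183010, chromosome 17, 81932384 to 81942412, minus strand), the mitochondrial reductase of the last step to proline, had 196, 206 and 209 CPM with CR31B and 169, 168 and 169.5 CPM with DMSO. The DMSO libraries had 169 ± 0.861 CPM and the CR31B libraries 204 ± 7.04 CPM (SD, n = 3), so the 1.21-fold rise was larger than the spread (log2 fold change 0.27 ± 0.047, adjusted p = 0.00109, edgeR; 0.178 with upper quartile scaling). Its interval of 2 SE, 0.18 to 0.37, overlaps that of MTHFD2. Of its exonic bases 14.1% are shared with MYADML2 on the same strand. Pair 1 went from 226 CPM (DMSO) to 179.7 CPM (CR31B).

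PCK2 (ENSG00000100889, chromosome 14, 24094053 to 24110598, plus strand), the mitochondrial phosphoenolpyruvate carboxykinase, had the largest estimate of the 10, 2.83-fold, next to the 2.81-fold of ASNS. It had 16.8, 27.5 and 24.6 CPM with CR31B and 7.74, 8.72 and 7.94 CPM with DMSO. Pair 2 rose by less than pairs 3 and 4, with log2 differences of 1.12, 1.65 and 1.63, and the estimate was 1.5 ± 0.16 (adjusted p = 3.96e-05, edgeR). Pair 1 held 13.8 CPM in the library labelled CR31B and 29.1 CPM in that labelled DMSO.

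Levels were compared between genes per kilobase of annotated exon (CPM per kb). In the DMSO libraries of pairs 2 to 4 the order ran MTHFD2 (96.9 ± 2.44, SD, n = 3), PSAT1 (66.6 ± 1.31), PYCR1 (58.5 ± 0.298), ALDH18A1 (39 ± 1.04), SHMT2 (23.4 ± 0.662), PHGDH (12.3 ± 1.39), PSPH (8.72 ± 0.497), ALDH1L2 (4.1 ± 0.707) and PCK2 (1.94 ± 0.123). No 2 neighbours in that order overlapped. The ASNS row held 0.0597 ± 0.0109 and is not placed in the order because of its shared exons. In the CR31B libraries PSAT1 (118 ± 11.2) overlapped MTHFD2 (119 ± 4.46), SHMT2 (39.9 ± 3.47) overlapped ALDH18A1 (41.4 ± 2.36), and PHGDH (22.5 ± 2.1) overlapped PSPH (23.5 ± 2.82). The order depends on the length used. Per kilobase of the longest transcript, PYCR1 (88.6 ± 0.452) stood above PSAT1 in the DMSO libraries, and PHGDH (35.8 ± 4.02) and SHMT2 (33.1 ± 0.937) overlapped.

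The other genes of these pathways did not move as a block. Of 58 companion genes 48 were tested, and in pairs 2 to 4 12 rose, 10 fell and 26 did not pass, against background shares of 23.8% higher and 17.6% lower; as labelled with 8 libraries 0 passed (edgeR; 0 at an unadjusted p under 0.05; 0 with DESeq2 and limma voom). The split depends on scaling, with 9 higher and 19 lower under upper quartile and 10 higher and 16 lower under total count scaling. Without both libraries of pair 4 it was 8 higher and 5 lower. The median log2 fold change of the 48 was -0.05. In pair 1 the median difference was -0.01, and all 22 called companions had the opposite sign there.

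Among 9 tested genes of serine and glycine metabolism 3 rose and none fell, against 23.8% and 17.6% of all tested genes. SLC1A4, a transporter of serine and other neutral amino acids, rose from 24.8 ± 1.77 to 40.01 ± 4.72 CPM (SD, n = 3; log2 fold change 0.69 ± 0.091, adjusted p = 1.77e-04, edgeR). DLD, the dihydrolipoamide dehydrogenase shared by the glycine cleavage system, rose by 0.26 ± 0.048 (adjusted p = 0.00148, edgeR), and by 0.13 without passing when GC content and length were offset (adjusted p = 0.0649, edgeR). GLDC, the decarboxylase of that system, had -0.32 ± 0.13 and did not pass (adjusted p = 0.0664, edgeR), but passed as lower in 9 of 19 alternative settings, with the replicate number as a block among them (adjusted p = 0.00504, edgeR). SDS, which degrades serine, had no reads.

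In the folate and methyl list 4 of 19 tested genes were higher and 8 lower, against 23.8% and 17.6% of all tested genes. MTR, the methionine synthase that uses methyl folate, rose by 0.48 ± 0.06 on the log2 scale (adjusted p = 1.33e-04, edgeR), and by 0.309 with GC and length offsets. GART, a folate-using enzyme of purine synthesis, rose by 0.39 ± 0.054 (adjusted p = 2.53e-04, edgeR). ATIC, which uses folate carbon later in the same purine route, fell by 0.4, from 138 ± 5.16 to 104 ± 7.5 CPM (SD, n = 3; adjusted p = 4.65e-04, edgeR). GGH, which trims glutamate from folate, fell by 0.47 (adjusted p = 3.1e-04, edgeR), and FPGS, which adds it, fell by 0.3 (adjusted p = 0.00549, edgeR; 0.0635 without both libraries of pair 4). TYMS, which makes thymidylate with folate carbon, fell by 0.28 (adjusted p = 0.00214, edgeR). Without both libraries of pair 4 TYMS did not pass (adjusted p = 0.052, edgeR), and 46.6% of TYMS exonic bases overlap genes on the opposite strand.

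In the list for asparagine, aspartate and glutamate 4 of 10 tested genes rose and 1 fell, against 23.8% and 17.6% of all tested genes. GPT2, the mitochondrial alanine transaminase, rose from 79.7 ± 3.77 to 119.8 ± 8.96 CPM (SD, n = 3; log2 fold change 0.59 ± 0.063, adjusted p = 4.84e-05, edgeR). GLUL, which makes glutamine from glutamate, rose by 0.24 ± 0.051 (adjusted p = 0.00349, edgeR), and its 0.11 with GC and length offsets did not pass (adjusted p = 0.146, edgeR). GOT2, the mitochondrial aspartate transaminase, fell by 0.22 (adjusted p = 0.0121, edgeR; 0.0583 with GC and length offsets).

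Of 5 tested proline genes 1 fell and none rose, where 17.6% of all tested genes were lower and 23.8% higher. ALDH4A1, which oxidises the intermediate of proline breakdown to glutamate, had 1.87 ± 0.264 CPM with CR31B and 2.79 ± 0.148 CPM with DMSO (SD, n = 3; log2 fold change -0.58 ± 0.15, adjusted p = 0.00963, edgeR; 0.0586 without both libraries of pair 4), and 41.1% of its exonic bases are shared with another gene on its strand. OAT and ARG2, which link ornithine to proline, had -0.07 and -0.12 and did not pass, except with upper quartile scaling, where both were lower (adjusted p = 0.0486 and 0.0411, edgeR). Among 5 tested genes of phosphoenolpyruvate and malate only ME2, the mitochondrial malic enzyme, was called, against 41.3% of all tested genes. ME2 had 0.21 ± 0.049 (adjusted p = 0.00584, edgeR), and its value was -0.031 with GC and length offsets. ME2 also did not pass under upper quartile scaling or without both libraries of pair 4 (adjusted p = 0.0713 and 0.0883, edgeR). ME1 (-0.12) and MDH2 (-0.08) did not pass here, and passed as lower in 4 and 3 of 19 alternative settings.

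**Figure D4:**
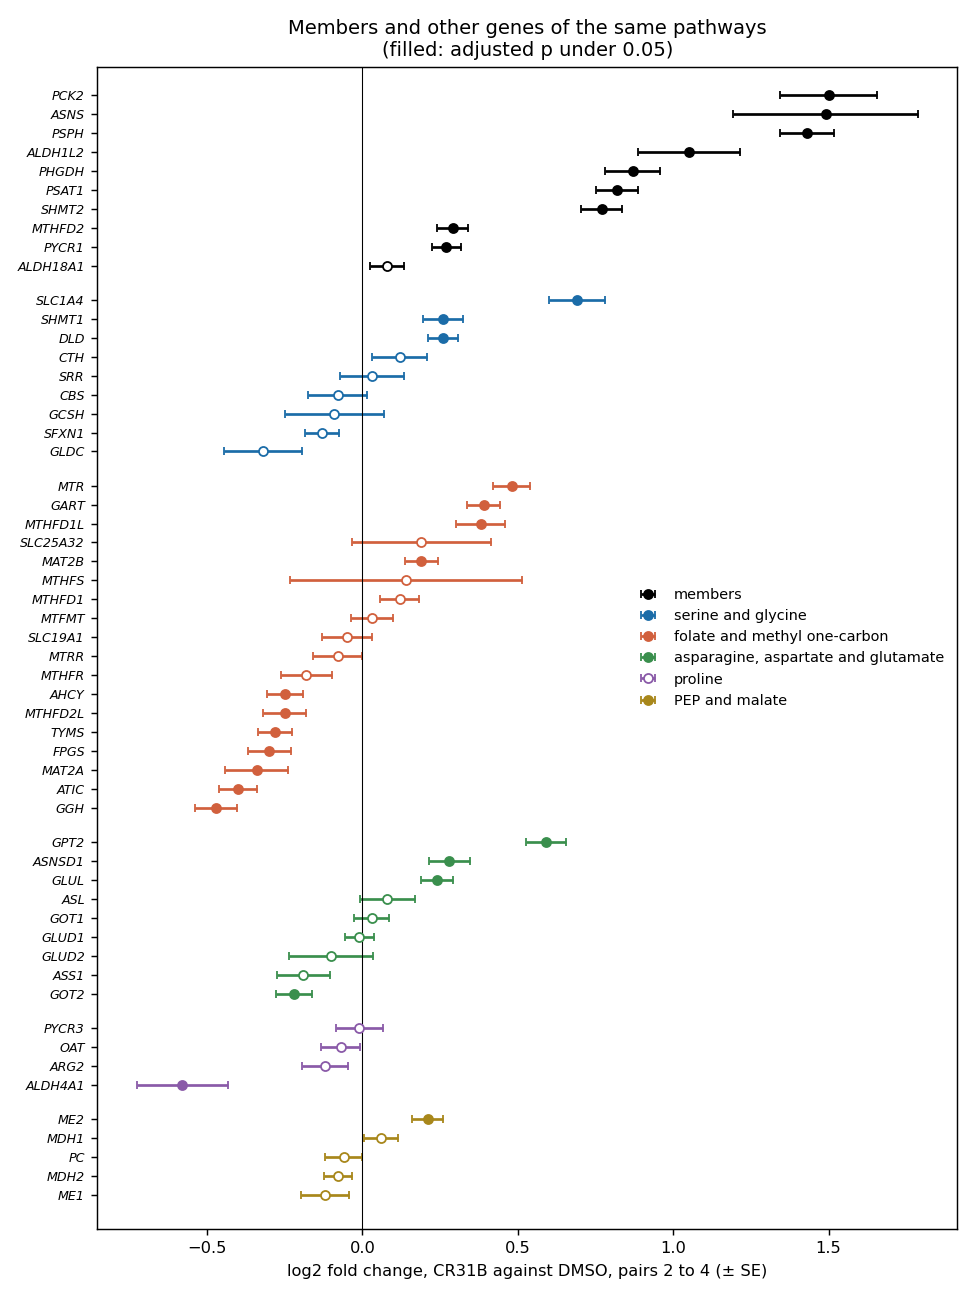
Log2 fold change of CR31B against DMSO in pairs 2 to 4 with its SE, for the 10 enzyme genes (black) and 45 of the 48 tested companion genes by list; filled points had an adjusted p under 0.05. All black points except MTHFD2, PYCR1 and ALDH18A1 lie above SLC1A4 (0.69), the highest companion, while the folate list holds filled points on both sides of 0.

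SHMT2, MTHFD2, PYCR1, ASNS, PCK2 and ALDH1L2 were set beside relatives in another compartment or of the same family. The question was whether the ratio of the 2 genes within a library changed. In pairs 2 to 4 the log2 ratio of SHMT2 to SHMT1, its cytosolic relative, was 2.39, 2.4 and 2.53 with CR31B and 1.95, 1.89 and 1.95 with DMSO, without overlap. SHMT1 itself rose by 0.26 ± 0.063 (adjusted p = 0.00792, edgeR). It did not pass under upper quartile or total count scaling, nor without both libraries of pair 4 (adjusted p = 0.0706, 0.0547 and 0.103, edgeR).

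MTHFD2L, the other mitochondrial enzyme of the MTHFD2 kind, had -0.25 ± 0.068 (adjusted p = 0.0134, edgeR), so the log2 ratio of MTHFD2 to it was 0.54 higher with CR31B; MTHFD2L did not pass without CR31B replicate 4 or DMSO replicate 2, nor without both libraries of pair 2 or pair 4 (adjusted p from 0.0566 to 0.0982, edgeR). The ratio of MTHFD2 to MTHFD1L, the mitochondrial synthetase that follows it, showed overlapping groups and a difference of -0.09, with MTHFD1L up by 0.38 ± 0.077 (adjusted p = 0.00281, edgeR). MTHFD1, the cytosolic enzyme, had 0.12 ± 0.063 and did not pass (adjusted p = 0.167, edgeR).

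PYCR3, a relative of PYCR1, had -0.01 ± 0.075 and did not pass (adjusted p = 0.903, edgeR), with an interval of 2 SE from -0.16 to 0.14. The log2 ratio of PYCR1 to PYCR3 was 3.31, 3.61 and 3.49 with CR31B and 3.18, 3.22 and 3.15 with DMSO. ASNSD1, a gene with an asparagine synthetase domain, rose by 0.28 ± 0.066 (adjusted p = 0.00673, edgeR; 0.0568 without both libraries of pair 4), and by 0.183 with upper quartile scaling.

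Of 9 such pairs 7 could be tested; PCK1, the cytosolic counterpart of PCK2, had no reads in any library, below a limit of 3 counts or 0.069 CPM at the lowest depth, and ALDH1L1, the cytosolic counterpart of ALDH1L2, had 2 to 8 reads per library. In pairs 2 to 4, 6 of the 7 ratios were higher with CR31B without overlap. Each had p = 0.1, the smallest that 3 against 3 allows, and adjusted p = 0.117 (exact permutation test, two-sided). SHMT2, MTHFD2, PYCR1 and ASNS were also higher without overlap by themselves, as were 27.7% of all tested genes. How often ratios of other genes are apart in this way was not examined. With all 8 libraries as labelled 0 of 7 passed, with differences from -0.01 to 0.84 and adjusted p from 0.467 to 0.914 (exact permutation test, two-sided). In pairs 2 to 4 the difference for SHMT2 to SHMT1, 0.51, stood beside SDs of 0.08 and 0.04, and that for MTHFD2 to MTHFD2L, 0.54, beside SDs of 0.09 and 0.1. A test of 3 against 3 cannot pass the threshold. With 4 against 4 the smallest possible p of the permutation test is 0.0286. After adjustment over 7 ratios a single ratio could not pass with all 8 libraries either.

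**Figure D5:**
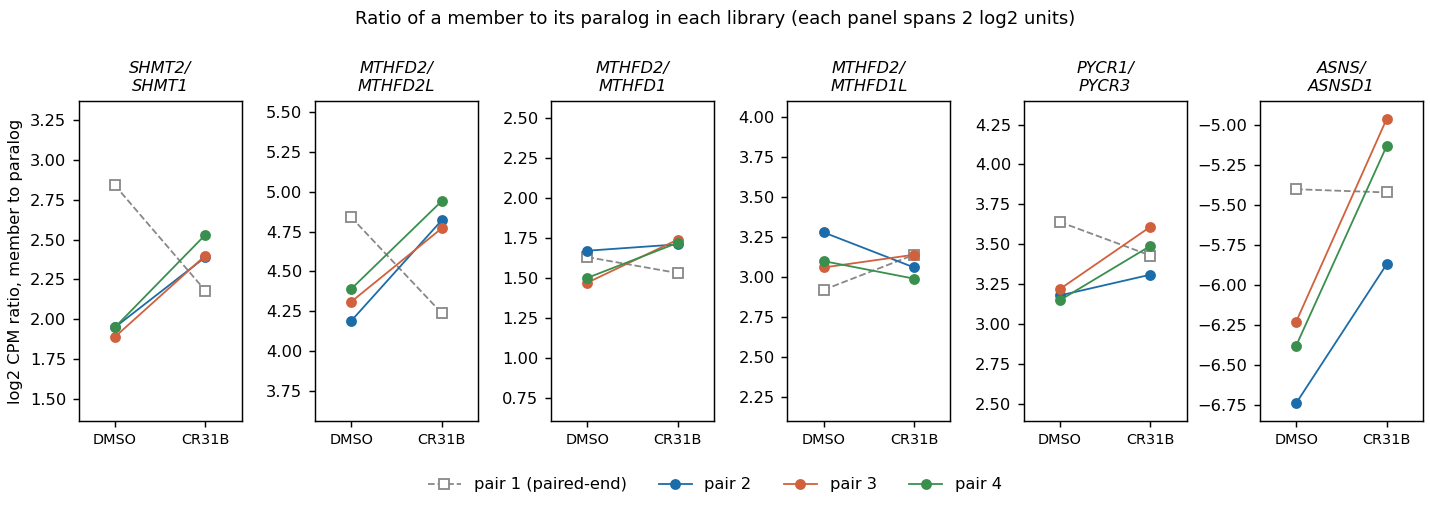
Log2 ratio of an enzyme to its relative in every library for 6 of the 7 tested pairs, with DMSO at the left and CR31B at the right, and every panel spanning the same number of log2 units. Pairs 2 to 4 (filled) go up in 5 of 6 panels, the exception being MTHFD2 to MTHFD1L, while pair 1 (open, dashed) goes down in 5 and up in that one.

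Of 8 regulators listed for these genes 6 rose in pairs 2 to 4 and 2 did not pass, where 23.8% of all tested genes were higher. ATF4 had 495, 487 and 468 CPM with CR31B and 380.1, 353 and 376 CPM with DMSO (log2 fold change 0.39 ± 0.052, adjusted p = 2.03e-04, edgeR). CEBPB, a C/EBP partner of ATF4, rose 2.46-fold (1.3 ± 0.075, adjusted p = 1.22e-06, edgeR), and CEBPG, another, rose by 0.64 ± 0.046 (adjusted p = 3.89e-06, edgeR). NFE2L2, the regulator of antioxidant genes, rose by 0.65 ± 0.078 (adjusted p = 9.97e-05, edgeR). DDIT3 rose by 0.37 ± 0.12 at about 5 CPM (adjusted p = 0.0349, edgeR), a call that held in 10 of 19 alternative settings. It was lost under upper quartile and total count scaling (adjusted p = 0.116 and 0.104, edgeR), and without CR31B replicate 3 or 4, DMSO replicate 2 or 4, or both libraries of any pair.

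MYCN had 0.12 ± 0.085 and did not pass (adjusted p = 0.274, edgeR), and passed with the replicate number as a block (adjusted p = 0.0243, edgeR). ATF5 had -0.05 ± 0.078 (adjusted p = 0.678, edgeR). In pair 1 all 6 called regulators had the opposite sign, with log2 differences of -0.46 for ATF4, -1.31 for CEBPB and -0.74 for CEBPG. As labelled with 8 libraries 0 of the 8 passed (edgeR; 0 at an unadjusted p under 0.05).

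The mean of the 10 standardised profiles over the 8 libraries was matched against 10789 other genes with at least 5 CPM. WDR89 (Pearson r = 0.999 over 8 libraries), POLR3E and SOS1 (both 0.994), UBR2 (0.994) and PKP4 (0.993) were closest. These r values describe libraries that fall into 2 clusters and carry no test. Of the 10 genes themselves PYCR1 (0.994) lay closest to the mean profile, of which it is a part, and ALDH18A1 (0.701) farthest.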

How the data were processed

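The authors deposited raw counts per Ensembl gene for 8 libraries, with whole numbers in every column. Per the submitters' processing notes the build was GRCh38 and FastQC 0.11.7, STAR 2.7.2b, edgeR 3.36.0 and limma 3.50.3 were used. Roles and counting tool are not given in the sources used here. The strand setting is not described, though the name of the deposited count table holds the word reverse. Per the labels the library kit was one for small RNA, which does not match the polyadenylated RNA they also give. No molecular identifiers are described, so precision from depth covers counting error only. Columns were matched to samples by name (one header lacks its first letter). Symbols, positions and exons came from GENCODE 29, which held 58515 of 58787 identifiers.

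Tests on the counts used edgeR 4.0.16 under R 4.3.3 (quasi-likelihood, filterByExpr, TMM, Benjamini-Hochberg over all tested genes, two-sided, threshold 0.05): all 8 libraries with layout as a term, the 6 single-end libraries alone, and the interaction. SE is the log2 fold change over the root of F. Per-library differences use log2 CPM and add 1 as prior count. The members and lists were chosen with earlier results of these data known. Named genes were all members, each member's relatives, 3 companions per list with the smallest p, listed regulators, and 5 genes of like pattern, less some companions not reported here by name; GLDC, SDS, ATIC, TYMS, FPGS and GOT2 were named after their values were seen. Replicate deviations correlated at 0.208, 0.388 and 0.157 in pairs 2, 3 and 4. Libraries of unlike number were not compared, so whether the numbers pair those libraries is not settled. The main fit to pairs 2 to 4 used no pairing, and the replicate block served as an alternative. With all 8 libraries the correlations did not point to pairing (-0.527 for pair 1). The closest libraries differed by more than sampling noise (mean chi-square per gene 7.16). Scripts were tested on simulated counts. DESeq2 1.42.0 and limma 3.58.1 served as alternatives.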

Additional observations from a re-analysis of the deposited data

Results flagged for a closer look

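In 7 of 20 groups examined (10 genes in each of 2 groups) 1 library lay far from the other 3 of its labelled group, and in all 7 it was the library labelled DMSO replicate 1, which was higher. Its gap to the nearest library, divided by the range of the group, was 0.954 for PCK2, 0.843 for PHGDH, 0.969 for PSAT1, 0.944 for PSPH, 0.948 for SHMT2, 0.844 for MTHFD2 and 0.971 for PYCR1, each above Dixon's 95% critical value for 4 samples. Chance marks about 1 in 20 groups, and these results share the same library.

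The difference of pair 1 minus that of pairs 2 to 4, on the log2 scale, passed the interaction test in 9 genes. It was -1.87 for ASNS, -2.57 for PCK2, -1.89 for PHGDH, -1.75 for PSAT1, -2.94 for PSPH, -1.65 for SHMT2, -0.63 for MTHFD2, -1.96 for ALDH1L2 and -0.601 for PYCR1. The same test passed in 25 of 48 companion genes and in 6 of 8 regulators, against 42.5% of all tested genes. That of PYCR1 was -0.393 with upper quartile scaling. ASNS did not pass it with DESeq2 (-1.85, adjusted p = 0.0764, Benjamini-Hochberg).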

How the results depend on the processing

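In pairs 2 to 4 the count of 9 enzyme genes stayed at 9 under every scaling, tool, offset and left-out library or pair tried, and was 8 with a filter of 1 CPM in 3 libraries, under which ASNS was not tested. With the replicate block it was 9 genes, and companions numbered 25; with GC and length offsets added to the block these were 9 and 26. The block alone changed the call of no named gene except MYCN and GLDC; DLD and GLUL, not called with the offsets, were called with offsets and block (adjusted p = 0.0167 and 0.0371, edgeR). As labelled with 8 libraries the count was 0 with the replicate block and in the other 10 settings that kept all libraries; leaving out libraries or pairs gave 0 to 9 enzyme genes and 0 to 22 companions, with calls only where a library of pair 1 was left out. Those calls in effect repeat the fit to pairs 2 to 4, because the layout term absorbs a lone library of pair 1. PHGDH, for example, was 0.867 without CR31B replicate 1, 0.869 without DMSO replicate 1 and 0.868 without both. Companions called in pairs 2 to 4 ranged from 13 to 23 over left-out libraries and pairs, lowest without pair 4, and from 19 to 28 over other settings. The ratio tests gave 0 in every setting, but in pairs 2 to 4 alone no value could have passed. In the other settings a single ratio could not have passed by itself, because the smallest possible p was too large for the adjustment.

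Values near 0 changed sign. ALDH18A1 was -0.00745 and -0.000663 as labelled with upper quartile and total count scaling, -0.00322 without pair 4 and -0.00705 to 0.0855 over all left-out libraries and pairs; in pairs 2 to 4 it was -0.012 and its interaction 0.0117 with upper quartile scaling. With GC and length offsets, without and with the replicate block, ME2 was -0.031 in both, PYCR3 0.0338 and 0.0331 and ATF5 0.0507 and 0.0508. Over left-out libraries and pairs PYCR3 ranged from -0.0633 to 0.0467 (0.0115 without pair 3), ATF5 from -0.12 to 0.0223 (-0.107 to 0.00324 over single libraries) and the ratio of MTHFD2 to MTHFD1L from -0.07 to 0.05. The cause of these changes was not tested. Upper quartile scaling moved the median of all genes in pairs 2 to 4 by -0.0954 on the log2 scale. The 13 to 51 reads of ASNS limit its precision.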
